A study of Glycine max with 24 samples.

Results

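The transcripts of 3 soybean genes of the dehydration-responsive element binding (DREB) group, DREB2 (LOC732579), DREB2A2 and DREB3, were followed in leaves with and without aphids. Their probe sets, the groups of short array probes that are read as 1 transcript, were those with a single gene symbol in the platform annotation and that symbol among the 3 genes. This gave 4 probe sets of 37593 soybean probe sets in the table; 8677 of those had a single gene, 6029 genes in all. DREB2 had 2 of them, Gma.8372.1.S1_a_at (the first DREB2 probe set) and Gma.8372.2.S1_at (the second), DREB2A2 had Gma.9553.1.A1_at and DREB3 had Gma.16611.1.S1_at.

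DREB proteins are transcription factors of the plant AP2/ERF family that bind a short promoter element, the dehydration-responsive element, of genes for stress protection. In Arabidopsis the DREB1 (CBF) branch acts mainly in cold and the DREB2 branch in drought, salt and heat, and DREB2A protein is unstable in unstressed cells, so that transcript and activity can differ. Known target genes include those of dehydrins and other late embryogenesis abundant (LEA) proteins, of galactinol synthase and of heat shock factors. In soybean, DREB2 is known as a gene induced by drought and salt, DREB2A2 as a relative of Arabidopsis DREB2A induced by dehydration and heat, and DREB3 as a gene induced by cold.

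The leaves were the third trifoliate leaves of cultivar SD01-76R, susceptible to aphids, or of LD05-16060, resistant to them. They were sampled without aphids or with soybean aphids, insects that feed on phloem sap, for 1 or 7 days. Every infested plant received 30 aphids (10 per leaflet, 21 or more of them adult), and infested and uninfested plants alike grew under nets at 25 C with 16 hours of light a day. The full factorial gave 8 groups of 3 arrays, 24 in all, and the design asks how each cultivar responds to the insect. Aphids had been taken off before leaves were sampled, and the labels do not say whether a sample pools plants, so p-values measure the spread between samples, which may in part be technical.

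Levels are quantile-normalized log2 signals, differences are log2 units with their standard error (SE) from limma, and n is 3 arrays per group throughout. A difference is called where its Benjamini-Hochberg adjusted p over all soybean probe sets was under 0.05. Array medians of the deposited values ran from 7.00 to 8.04, and the 3 infested susceptible arrays of day 7 lay at 7.97, 8.04 and 7.86, the upper end. The arrays least like the others were replicate 1 of uninfested susceptible leaves of day 1 (mean correlation 0.900), replicate 1 of uninfested resistant leaves of day 7 (0.933) and replicate 2 of infested resistant leaves of day 1 (0.942). Leaf genes (6 genes such as CAB3, of the light-harvesting complex) averaged 11.23 to 11.90 over the groups, against 6.09 to 6.28 for the list matched by root nodule names. Seed markers (11 genes) averaged 6.09 to 6.69, with the storage protein genes among them between 5.39 and 5.65. Of the trypsin inhibitor genes, KTI-2 and KTI-3 were far brighter, at 10.73 and 9.96. The separate entries KTI3 and KTI1 were not, at 5.54 and 5.24. Phloem markers (9 genes) had their highest mean, 7.46 ± 0.46 (SD, n = 3), in susceptible leaves without aphids on day 1, and lay at 6.23 to 6.90 in the other groups. Of the phloem genes, SUT1 averaged 10.09 over all arrays and the others 5.47 to 7.09. All 4 DREB probe sets lay above 7.58 or at it on every array, where the 5th percentile of all values was 5.28 and the median 7.61. Their means over 24 arrays stood at percentiles 82.8 and 70.2 of all probe sets for DREB2, 70.2 for DREB2A2 and 93.0 for DREB3.

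After 7 days of aphids, all 4 probe sets were higher in susceptible leaves, 2.71-fold and 3.06-fold for DREB2, 3.17-fold for DREB2A2 and 1.72-fold for DREB3. The 4 were called in that direction, as were 1.94% of all probe sets. In each of the 4 the infested arrays all lay above the uninfested ones, which held for 11.3% of all probe sets. No such rise was called on day 1 in that cultivar, where 1.72% of all probe sets were called higher. Nor was one called in the resistant cultivar on day 1 or day 7, where 0% and 0.00266% of all probe sets were called in either direction. A difference in the aphid effect between cultivars or between days was called for 0 of the 4. In whole leaves, a transcript present in more cells and a higher level per cell cannot be told apart.

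**Figure D1:**
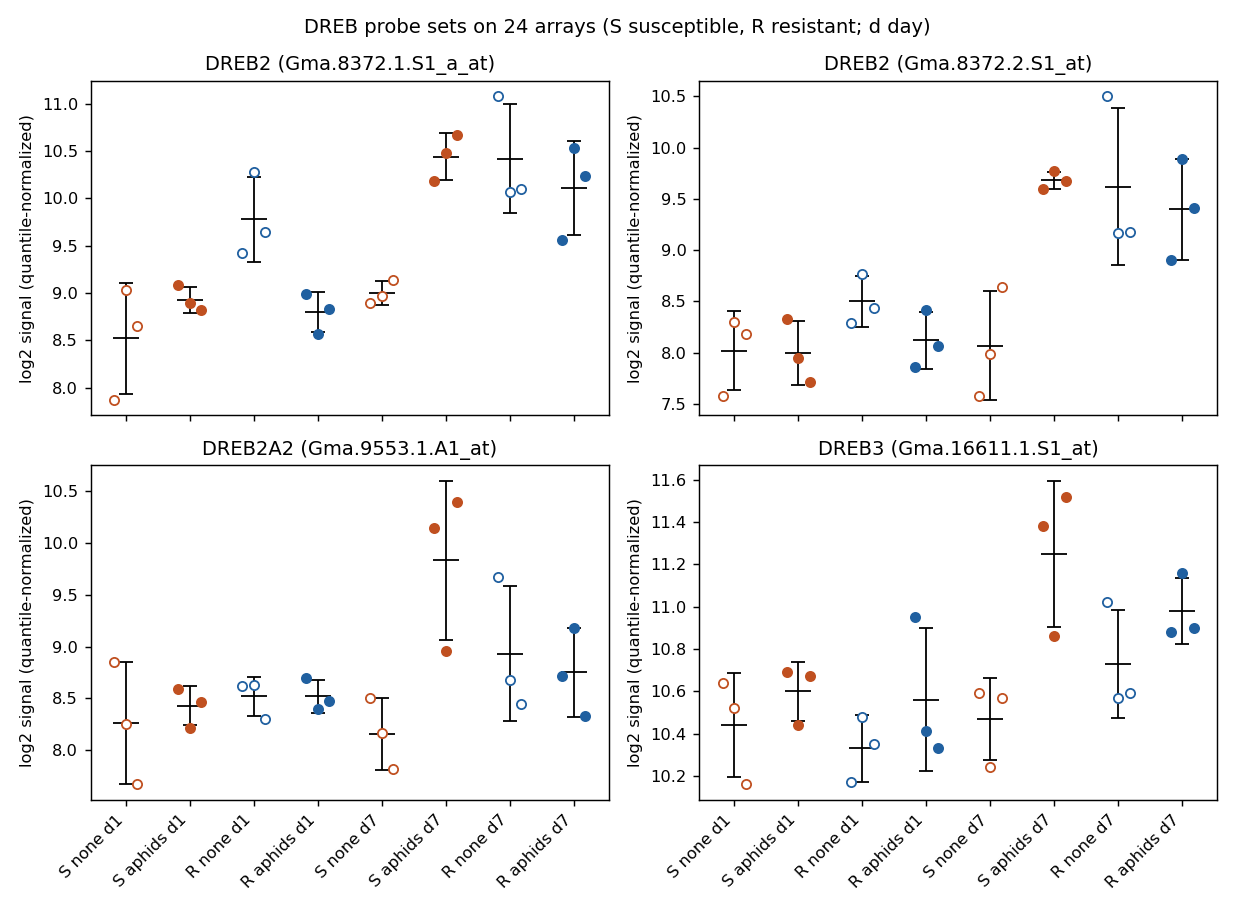
Quantile-normalized log2 signal of the 4 DREB probe sets on every array (circles, filled for infested leaves, orange for the susceptible and blue for the resistant cultivar), with the group mean and SD (bars, n = 3). Infested susceptible leaves of day 7 had the highest group mean in every panel, and for DREB2 uninfested resistant leaves of day 7 lay within 0.06 of it.

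The first DREB2 probe set read 10.18, 10.48 and 10.67 on the infested susceptible arrays of day 7 and 8.89, 8.97 and 9.14 on the uninfested ones. The lowest infested array thus stood over a log2 unit above the highest uninfested one. The difference was 1.44 ± 0.30 (SE; 95% interval 0.81 to 2.07; limma adjusted p = 0.0139). The second probe set read 9.60, 9.77 and 9.67 with aphids and 7.58, 7.99 and 8.64 without. Its infested arrays were nearly alike, its uninfested arrays were spread, and the groups did not overlap. The difference was 1.61 ± 0.33 (0.93 to 2.30; adjusted p = 0.0117). Both probe sets of the gene therefore passed, with intervals that overlapped widely. Leaving out 1 array ended a DREB2 call in 5 cases. For the first probe set these were uninfested replicate 1 (1.39, adjusted p = 0.0671), uninfested replicate 3 (1.51, 0.0513) and infested replicate 3 (1.33, 0.0646) of susceptible leaves of day 7. For the second they were uninfested replicate 1 (1.37, 0.0765) and infested replicate 1 (1.65, 0.0505).

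DREB2A2, the dehydration and heat member, read 10.14, 8.96 and 10.39 on the infested susceptible arrays of day 7. On the uninfested ones it read 8.50, 8.17 and 7.82. Replicate 2 of the infested leaves stood well below its group and still above every uninfested array. The difference was 1.67 ± 0.35 (0.93 to 2.40; adjusted p = 0.0146), and the infested group's SD of 0.766 was the widest of any DREB2A2 group. The call was lost in a fit of the contrast's own groups (adjusted p = 0.0579) and without uninfested replicate 3 (1.49, adjusted p = 0.0962), infested replicate 1 (1.51, 0.085) or infested replicate 3 (1.39, 0.0776) of these leaves.

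DREB3, the cold member, read 11.38, 10.86 and 11.52 with aphids and 10.59, 10.24 and 10.57 without, in susceptible leaves of day 7. Here too infested replicate 2 was the low one and the groups did not overlap. The difference, 0.79 ± 0.19 (0.38 to 1.19; adjusted p = 0.0315), was the smallest of the 4 in log2 units, and DREB3 also had the smallest within-group SD (0.241, against 0.398 to 0.468 for the others). It did not reach 2-fold, and a fit of the contrast's own groups gave an adjusted p of 0.0852. The call was also lost without any 1 of 5 susceptible arrays of day 7, namely uninfested replicates 1, 2 and 3 (0.85, 0.67 and 0.84, adjusted p = 0.0757, 0.0916 and 0.0918) and infested replicates 1 and 3 (0.72 and 0.65, adjusted p = 0.132 and 0.133).

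Array quality and marker lists were read in the same contrast. The 3' minus 5' signal of control probe sets, which reads RNA integrity, was 1.25 ± 0.28 (mean and SD of 3 arrays) with aphids and 1.04 ± 0.12 without, in susceptible leaves of day 7, and the phloem list averaged 6.44 ± 0.08 and 6.86 ± 0.21, with no overlap of the arrays. Leaf genes averaged 11.30 ± 0.39 and 11.53 ± 0.02. With the 3' minus 5' signal as a covariate, all 4 differences stayed called. They also stayed called without the 3 arrays least like the others, but none of those arrays is in this contrast. Leaving them out could change only the shared spread and not the 4 estimates, so it is no check of them. In that fit 2143 of all probe sets were called, against 1067 in the main fit. All phloem genes but SUT1 averaged under the median of all values, and no background estimate was given for them. The part of the phloem and leaf lists' shift in the result was not tested.

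**Figure D2:**
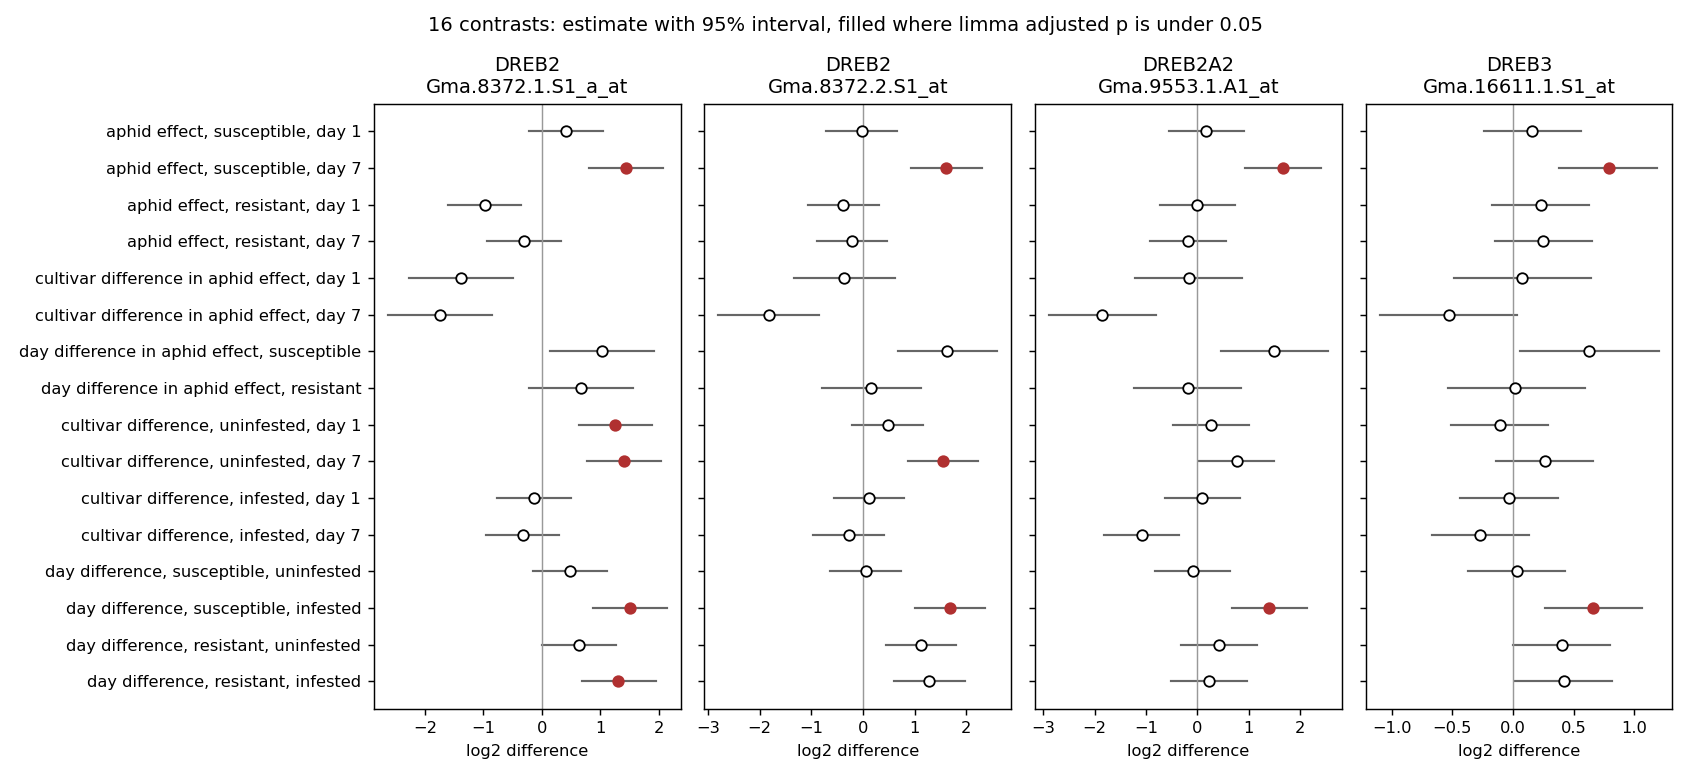
Log2 difference of each DREB probe set (columns) in each of 16 contrasts (rows), with its 95% interval, filled where the limma adjusted p was under 0.05. Aphid effects are infested minus uninfested, cultivar differences resistant minus susceptible and day differences day 7 minus day 1. The 4 probe sets were called together in infested against uninfested susceptible leaves of day 7 and in day 7 against day 1 of infested susceptible leaves.

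On day 1 in the susceptible cultivar, 0 of the 4 probe sets was called, 0 had an unadjusted p under 0.05, and 5.01% of all probe sets were called in either direction. The first DREB2 probe set read 9.08, 8.89 and 8.82 with aphids and 7.87, 9.03 and 8.65 without. The second read 8.33, 7.95 and 7.72 against 7.58, 8.30 and 8.18. The groups overlapped in both, with uninfested replicate 1, the array least like the others, lowest. The differences were 0.41 (interval -0.22 to 1.04) and -0.02 (-0.71 to 0.66). DREB2A2 read 8.59, 8.22 and 8.47 against 8.85, 8.25 and 7.68, a difference of 0.17 (-0.56 to 0.91). DREB3 read 10.69, 10.44 and 10.67 against 10.64, 10.52 and 10.16, a difference of 0.16 (-0.24 to 0.56). These groups overlapped as well, and adjusted p-values of the 4 ran from 0.42 to 0.976. A rise of the size seen on day 7 lay outside the day 1 interval for the first DREB2 probe set (1.44 against an upper bound of 1.04), the second (1.61 against 0.66), DREB2A2 (1.67 against 0.91) and DREB3 (0.79 against 0.56). The day 7 estimates have an error of their own. The intervals of the 2 days overlapped for the first DREB2 probe set (day 7, 0.81 to 2.07) and DREB3 (0.38 to 1.19), and not for the second or DREB2A2.

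The difference between days in the aphid effect of the susceptible cultivar was tested directly. The estimates, day 7 minus day 1, were 1.03 ± 0.43 and 1.63 ± 0.46 for DREB2, 1.5 ± 0.50 for DREB2A2 and 0.63 ± 0.27 for DREB3. All 4 had an unadjusted p under 0.05, from 0.00216 to 0.0314, and 0 of 4 was called (adjusted p = 0.161 to 0.271), as were 0% of all probe sets, of which 5928 had an unadjusted p under 0.05. A difference between days in the aphid effect was thus not called. With array weights, a fit that gives less weight to arrays that depart from their group, the 2 DREB2 probe sets were called, but so were 5.35% of all probe sets, against 0% in the fit without weights.

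In the resistant cultivar on day 1, 0 of 4 probe sets was called for aphids, and of all probe sets 0% were called (2865 had an unadjusted p under 0.05). The first DREB2 probe set read 8.99, 8.57 and 8.83 with aphids and 9.42, 10.28 and 9.64 without. Every infested array lay below every uninfested one. The difference of -0.98 ± 0.30 (-1.61 to -0.35) had an unadjusted limma p of 0.00414 and an adjusted p of 0.62. The second probe set read 7.86, 8.42 and 8.07 against 8.29, 8.77 and 8.44, with groups that overlapped (-0.38, -1.06 to 0.30). DREB2A2 read 8.70, 8.40 and 8.48 against 8.62, 8.63 and 8.30, and the estimate was 0.00 (-0.73 to 0.74). DREB3 read 10.95, 10.41 and 10.33 against 10.17, 10.48 and 10.35 (0.23, -0.17 to 0.63), with 1 infested array high and the others among the uninfested ones.

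On day 7 in the resistant cultivar, 0 of 4 probe sets was called, 0 had an unadjusted p under 0.05, and 0.00266% of all probe sets were called. The first DREB2 probe set read 9.56, 10.53 and 10.24 with aphids and 11.08, 10.07 and 10.10 without, and the second 8.90, 9.89 and 9.41 against 10.50, 9.17 and 9.18. DREB2A2 read 8.72, 9.18 and 8.33 against 9.67, 8.68 and 8.45. DREB3 read 10.88, 11.16 and 10.90 against 11.02, 10.57 and 10.59. The groups overlapped in all 4, and uninfested replicate 1 was the highest uninfested array in each. The differences were -0.31 (-0.94 to 0.33), -0.22 (-0.90 to 0.47), -0.19 (-0.92 to 0.55) and 0.25 (-0.15 to 0.65). Each upper bound lay below the estimate found in susceptible leaves on the same day, but that estimate has an error of its own. For DREB3 the intervals of the cultivars overlapped (0.38 to 1.19 in susceptible leaves). Without uninfested replicate 1, 1 of the arrays least like the others, the 4 differences were 0.03, 0.22, 0.18 and 0.40, so the sign of the first 3 rested on that array.

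The difference between cultivars in the aphid effect, resistant minus susceptible, came close to the threshold on day 7 without passing it. It was -1.75 ± 0.43 (-2.64 to -0.85; adjusted p = 0.06) and -1.83 ± 0.46 (-2.80 to -0.86; 0.0655) for DREB2. For DREB2A2 it was -1.85 ± 0.50 (-2.89 to -0.81; 0.0784), and for DREB3 -0.53 ± 0.27 (-1.10 to 0.03; 0.352). The cultivar difference of uninfested leaves enters this contrast with its sign turned, so it is no separate evidence. For DREB2 on day 7 it was 1.41 and 1.55, and among infested leaves the cultivar difference was -0.33 and -0.28. Of the 4, 3 had an unadjusted p under 0.05 and 0 was called, where 0.676% of all probe sets were called. These estimates depended on the scaling for their call: unscaled values gave -2.19, -2.28 and -2.27 for DREB2 and DREB2A2, all 3 called, with 1.32% of all probe sets. Without uninfested resistant replicate 1 of day 7 they were -1.41, -1.39 and -1.48, with adjusted p of 0.183, 0.188 and 0.238, and calls over all probe sets fell to 0.0319%. Without uninfested resistant replicate 3 of day 7 the same 3 were called (-1.90, -2.05 and -2.10), with 1.71% of all probe sets. Leaving out infested resistant replicate 2 of day 7, infested susceptible replicate 2 of day 7 or uninfested susceptible replicate 1 of day 1 gave 2, 1 and 1 member calls, with 1.64%, 0.944% and 0.668% of all probe sets called.

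**Figure D3:**
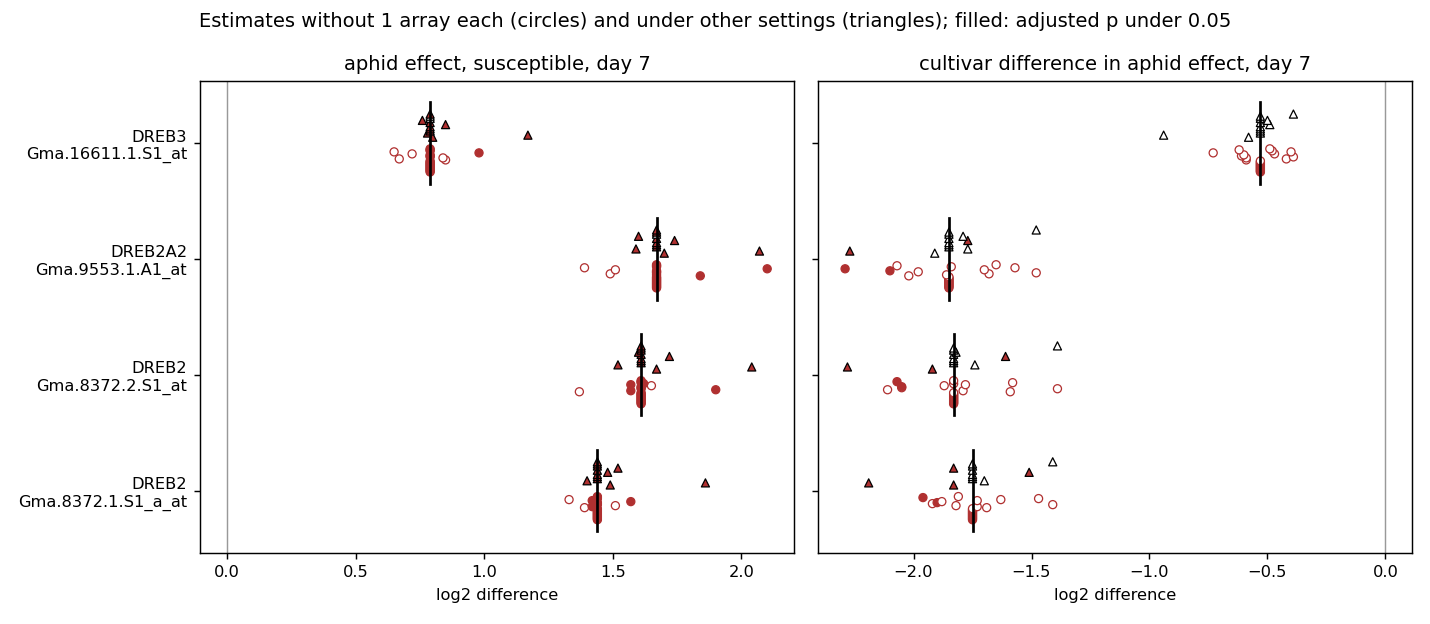
Log2 difference of each DREB probe set for the aphid effect in susceptible leaves of day 7 (left) and for the cultivar difference in that effect (right) under 12 other settings (triangles) and without each of the 24 arrays (circles); the bar is the value in the text and filled symbols had an adjusted p under 0.05. No estimate crossed 0 in either panel, and on the right most symbols were not called.

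On day 1 the same difference between cultivars was -1.39 ± 0.43 (-2.28 to -0.50; adjusted p = 0.079) for the first DREB2 probe set and -0.36, -0.17 and 0.07 for the second, DREB2A2 and DREB3 (adjusted p = 0.691 to 0.904). The cultivar difference of uninfested leaves enters here in the same way. Of the 4, 1 had an unadjusted p under 0.05 and 0 was called, where 0.886% of all probe sets were called. Without uninfested susceptible replicate 2 of day 1 the first DREB2 probe set was called (adjusted p = 0.044), with 3.72% of all probe sets, and with array weights it was called too (0.0479), with 5.78%. In the resistant cultivar the day difference in the aphid effect was 0.67, 0.16, -0.19 and 0.02 in the same order of probe sets, with 0 called, 0 at an unadjusted p under 0.05, and 0% of all probe sets called (1032 at an unadjusted p under 0.05).

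Among uninfested leaves, DREB2 was higher in the resistant cultivar. On day 1 the first probe set stood at 9.42, 10.28 and 9.64 there and at 7.87, 9.03 and 8.65 in the susceptible one, with no overlap. This difference of 1.26 ± 0.30 (2.39-fold; 0.63 to 1.89; adjusted p = 0.00817) was the only 1 of the 4 called, where 8.91% of all probe sets were called higher. The second probe set differed by 0.48 (-0.21 to 1.16; adjusted p = 0.332), DREB2A2 by 0.26 (-0.47 to 1.00) and DREB3 by -0.11 (-0.51 to 0.29), all with overlapping arrays. The call on the first probe set did not hold without uninfested susceptible replicate 1 (0.93, adjusted p = 0.0716) or uninfested resistant replicate 2 (1.01, 0.0582), nor with the 3' minus 5' signal as a covariate (1.03, 0.144). That signal averaged 1.51 ± 0.44 (SD, n = 3) in the susceptible and 0.90 ± 0.09 in the resistant group, and the phloem list 7.46 ± 0.46 and 6.30 ± 0.36.

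On day 7 both DREB2 probe sets were higher in uninfested resistant leaves, and 1.36% of all probe sets were called higher. The first read 11.08, 10.07 and 10.10 there against 8.89, 8.97 and 9.14 in susceptible leaves, and the second 10.50, 9.17 and 9.18 against 7.58, 7.99 and 8.64. No arrays overlapped in either. The differences were 1.41 ± 0.30 (2.67-fold; adjusted p = 0.0201) and 1.55 ± 0.33 (2.93-fold; 0.0188). DREB2A2, at 9.67, 8.68 and 8.45 against 8.50, 8.17 and 7.82, differed by 0.77 ± 0.35 (0.03 to 1.5; adjusted p = 0.261). DREB3, at 11.02, 10.57 and 10.59 against 10.59, 10.24 and 10.57, differed by 0.26 ± 0.19 (-0.14 to 0.66; 0.516). Resistant replicate 1 was the highest array in all 4. Without it the DREB2 differences were 1.08 and 1.11 (adjusted p = 0.153 and 0.134), and without susceptible replicate 1 they were 1.36 and 1.31 (0.0899 and 0.109). Leaving out susceptible replicate 3 ended the call of the first probe set (1.49, 0.0663), a fit of these groups alone ended both (0.0799 and 0.142), and so did leaving out the 3 arrays least like the others (0.0635 and 0.0772). The phloem list averaged 6.23 ± 0.17 (6.06 to 6.40) in the resistant and 6.86 ± 0.21 (6.65 to 7.07) in the susceptible leaves of this contrast, and the leaf list 11.30 (11.18 to 11.47) and 11.53 (11.51 to 11.55), neither with overlap, and their part in the result was not tested. This contrast and the aphid effect in susceptible leaves of day 7 share the same 3 uninfested susceptible arrays.

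Among infested leaves no cultivar difference was called. On day 1 the 4 differences were -0.13, 0.12, 0.09 and -0.03, with 0 of 4 at an unadjusted p under 0.05 and 0.138% of all probe sets called. On day 7 they were -0.33 (-0.96 to 0.30) and -0.28 (-0.96 to 0.40) for DREB2 and -0.27 (-0.67 to 0.13) for DREB3. DREB2A2 was at 8.72, 9.18 and 8.33 in resistant and at 10.14, 8.96 and 10.39 in susceptible infested leaves, and overlapped through susceptible replicate 2. Its difference was -1.08 ± 0.35 (-1.82 to -0.35), the 1 of 4 with an unadjusted p under 0.05 (0.00599; adjusted p = 0.505), where 0.16% of all probe sets were called.

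Day 7 was compared with day 1 in each kind of leaf. In infested susceptible leaves all 4 probe sets rose, by 1.51 ± 0.30 (2.85-fold; adjusted p = 0.00657) and 1.68 ± 0.33 (3.20-fold; 0.00558) for DREB2, 1.40 ± 0.35 (2.64-fold; 0.0225) for DREB2A2 and 0.66 ± 0.19 (1.58-fold; 0.0449) for DREB3. Of all probe sets 3.76% were called higher, and 14.2% had all day 7 arrays above all day 1 arrays, as these 4 had. Both DREB2 calls held without any 1 array. DREB2A2 lost its call without infested susceptible day 1 replicate 2 (1.30, adjusted p = 0.0887) or 3 (1.42, 0.0525), or day 7 replicate 1 (1.25, 0.0915) or 3 (1.12, 0.108). DREB3, close to the threshold, kept its call in 11 of 24 fits without 1 array, with adjusted p up to 0.183 and differences from 0.52 to 0.85. It also lost its call with the 3' minus 5' signal as a covariate (0.63, adjusted p = 0.053) and in a fit of the contrast's own groups (0.66, 0.0739), and it did not reach 2-fold. From day 1 to day 7 of these leaves the phloem list went from 6.90 (6.55 to 7.10) to 6.44 (6.35 to 6.52) and the seed list from 6.26 (6.12 to 6.37) to 6.55 (6.52 to 6.59), both without overlap. Of the seed genes, only KTI-2 and KTI-3 varied widely over the 8 groups (group means 9.21 to 12.16 and 8.26 to 11.83). The other seed genes, storage protein genes among them, stayed between 5.10 and 5.94. The 3' minus 5' signal averaged 1.03 ± 0.19 on day 1 and 1.25 ± 0.28 on day 7. The part of these shifts in the result was not tested. This contrast shares its day 7 arrays with the aphid effect of that day.

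In uninfested susceptible leaves the day differences were 0.48, 0.05, -0.09 and 0.03, with 0 of 4 called, 0 at an unadjusted p under 0.05 and 10.5% of all probe sets called. In uninfested resistant leaves 0 of 4 was called, 2 had an unadjusted p under 0.05, and 3.91% of all probe sets were called. The second DREB2 probe set was at 10.50, 9.17 and 9.18 on day 7 and at 8.29, 8.77 and 8.44 on day 1. All its day 7 arrays were above all its day 1 arrays, and the difference of 1.12 ± 0.33 (0.44 to 1.80) had an adjusted p of 0.0603. Without uninfested resistant replicate 1 of day 7 the difference was 0.68 (adjusted p = 0.309). The first probe set differed by 0.64 (0.01 to 1.27; adjusted p = 0.28), DREB2A2 by 0.41 (-0.32 to 1.15) and DREB3, also without overlap, by 0.40 (0.00 to 0.80; 0.292). In infested resistant leaves the first DREB2 probe set rose 2.49-fold, the 1 of 4 called, where 0.444% of all probe sets were called higher. It read 9.56, 10.53 and 10.24 on day 7 and 8.99, 8.57 and 8.83 on day 1, with no overlap (1.31 ± 0.30; adjusted p = 0.0466). The second probe set had nearly the same difference, 1.28 ± 0.33, and an adjusted p of 0.0626. DREB2A2 and DREB3 differed by 0.22 (-0.51 to 0.96) and 0.42 (0.02 to 0.82; adjusted p = 0.277). The call on the first probe set sat at the threshold: it held in 7 of 24 fits without 1 array, with differences from 1.10 to 1.59 and adjusted p up to 0.25. Of the marker lists, the seed list shifted here without overlap, from 6.25 (6.12 to 6.38) on day 1 to 6.55 (6.53 to 6.58) on day 7, and its part in the result was not tested. Only KTI-2 and KTI-3 of that list varied widely over the groups.

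The order of the 8 group means differed between the genes. For the first DREB2 probe set it ran from 10.44 (susceptible infested day 7) over 10.42 (resistant uninfested day 7) and 10.11 (resistant infested day 7) to 9.78 (resistant uninfested day 1). Each of these 4 lay within the within-group SD of 0.398 of its neighbour. A gap of 0.78 separated them from the other 4 groups, which held all day 1 infested leaves and both groups of uninfested susceptible leaves and lay between 8.52 and 9.0. For the second the 3 groups at 9.68, 9.62 and 9.40 were the same as the first 3 above, and the gap of 0.90 came after them. The other 5 groups lay between 8.0 and 8.50, with no neighbours farther apart than the SD of 0.433.

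DREB2A2 had 1 group apart, infested susceptible leaves of day 7 at 9.83. The gap of 0.90 to the next group, uninfested resistant leaves of day 7 at 8.93, was nearly double the within-group SD of 0.468. The other 7 groups ran down to 8.16 with no neighbours farther apart than that SD. DREB3 was also highest in infested susceptible leaves of day 7, at 11.25, followed by infested resistant leaves of day 7 at 10.98 and uninfested ones at 10.73. Both of these gaps, 0.27 and 0.25, were just over its SD of 0.241, and the remaining groups ran down to 10.33 in steps of at most 0.13.

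Over the 24 arrays the 2 DREB2 probe sets moved together, with Pearson's r of 0.922 and Spearman's rho of 0.891. Within groups, after the group means were taken off, r was 0.78. DREB2A2 and DREB3 were the other close pair (r = 0.838, rho = 0.727, within groups 0.769). Between the pairs, r was 0.599 to 0.645 over all arrays and 0.113 to 0.363 within groups. These values describe 24 arrays that share groups and labels, and arrays carry their own scaling and quality into every probe set.

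**Figure D4:**
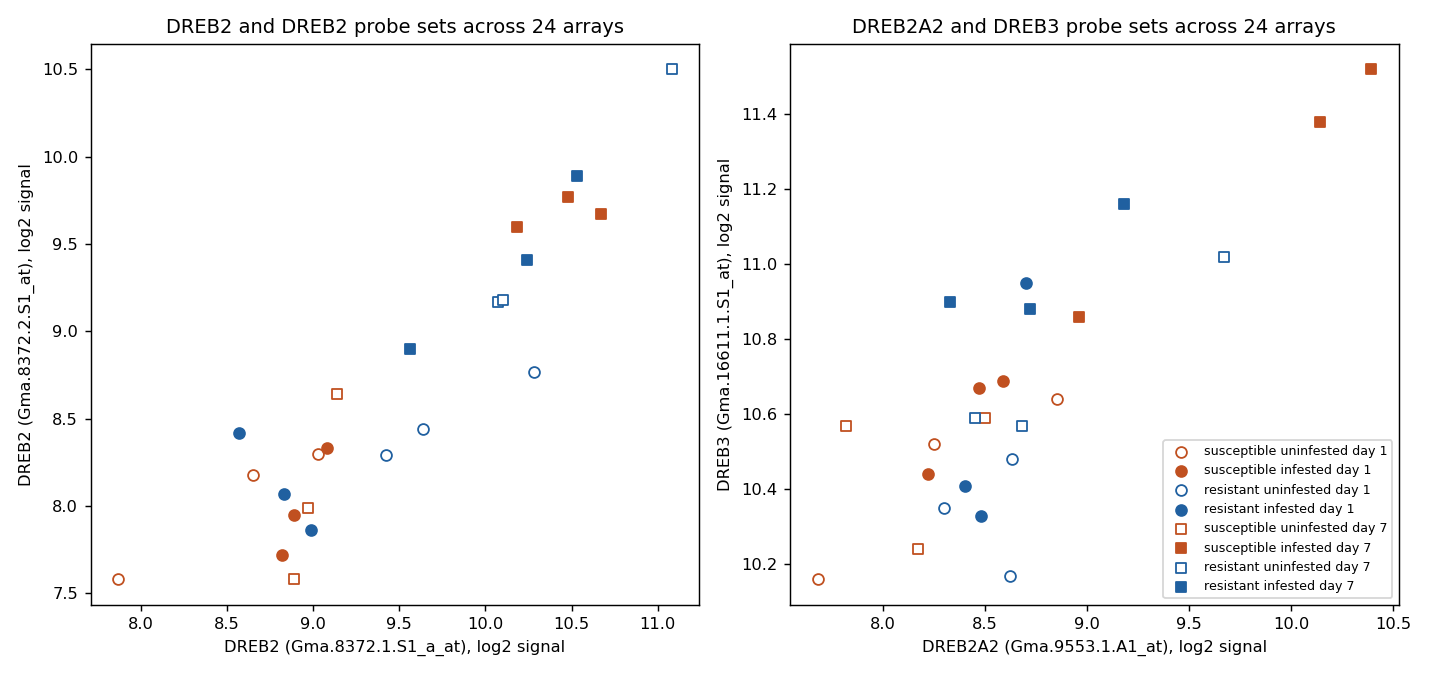
Log2 signal of the 2 DREB2 probe sets against each other (left) and of DREB2A2 against DREB3 (right) on 24 arrays, with open symbols for uninfested and filled ones for infested leaves, orange for the susceptible and blue for the resistant cultivar, circles for day 1 and squares for day 7. On the left, resistant and infested susceptible leaves of day 7 fill the upper right; on the right 2 infested susceptible arrays of day 7 stand apart at the upper end.

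Genes with the most similar pattern were sought by correlation over the 24 arrays among 1128 other genes with an informative name, 1 probe set each. For the first DREB2 probe set these were ALDH7B1, an aldehyde dehydrogenase gene (r = 0.913), PM35, a seed maturation protein gene (0.912), CIF1 (0.899), MCCA (0.895), which encodes a subunit of methylcrotonyl-CoA carboxylase, and MS (0.888). Of the 1128 genes, 95% had an r under 0.778. For DREB2A2 they were DREB1-like (0.871), MP2 (0.857), the seed maturation protein gene PM16 (0.838), DREB3 (0.838) and PM39 (0.829), against a 95th percentile of 0.632. For DREB3 they were NAC19, a NAC transcription factor gene (0.858), DREB1-like (0.838), DREB2A2 (0.838), PM9 (0.814) and PM39 (0.792), against 0.605. Spearman's rho was lower than r for these genes, at 0.596 to 0.785 for DREB2A2 and 0.641 to 0.776 for DREB3. For DREB2 it was 0.841 to 0.902. DREB2 shared none of its 5 with either of the others, and DREB2A2 and DREB3 shared DREB1-like and PM39 besides naming each other.

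The wider drought and cold pathway was read from 6 lists built by gene name, each gene by its brightest probe set, in the same contrasts. The files hold no background estimate, so for a gene whose uninfested mean lay under 6, where the 5th percentile of all values was 5.28, the group means are given and no difference. In susceptible leaves of day 7 the other AP2/ERF factors had 2 of 12 genes called higher and 0 lower for aphids, with a median difference of 0.08 where all probe sets had -0.03 and 1.94% were called higher. The 2 were ERF6, of the ethylene response factors (2.23 ± 0.51; adjusted p = 0.0216), and DREB1-like (9.34 from 5.41; 0.0146). DREB1-like read 10.15, 7.60 and 10.27 with aphids and 5.19, 6.0 and 5.03 without. Like DREB2A2 and DREB3, it was lowest of the infested arrays in replicate 2. DREB1 differed by 1.09 ± 0.36 (adjusted p = 0.107), DREB5 by 0.60 and the gene named DREB by -0.16.

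Of all probe sets, 1.94% were called higher for aphids in susceptible leaves of day 7, and the median of all was -0.03. Dehydrins, LEA and cold- or drought-responsive proteins had 12 of 39 genes called higher and 0 lower in this contrast, with a median of 0.50. The list was chosen with earlier results of these data known, and some of its genes were named one by one, so this count is no separate support. The 4 with the smallest p were B13-1-9 (10.28 from 5.46; adjusted p = 0.00053), SCOF-1, a zinc finger gene known from cold-treated soybean, (2.90 ± 0.42; adjusted p = 0.00114), PM3 (8.74 from 5.92; 0.00277) and COR2 (1.45 ± 0.26; 0.00513). PM35, the seed maturation gene that followed DREB2, was among the 12 (3.32 ± 0.83, adjusted p = 0.0354), as were MP2 and PM9, which followed DREB2A2 and DREB3. PM16 and PM39, which also followed them, were not called (adjusted p = 0.106 and 0.102). These 5 were picked for their correlation with DREB genes over the same arrays, so their values here are no separate support. The osmolyte list had 1 of 6 higher, ALDH10A2, a betaine aldehyde dehydrogenase gene (1.46 ± 0.32; adjusted p = 0.0167), with a median of 0.58, while GOLS, for galactinol synthase, differed by 2.33 ± 0.77 (0.107). In the abscisic acid list 2 of 6 were higher, the protein kinase genes SPK-4 (1.41 ± 0.19; 0.000804) and SPK-3 (0.75 ± 0.18; 0.0318), with a median of 0.36. Other regulators had 2 of 29 higher, SCOF-1, which counts in both lists, and NAC1 (8.04 from 5.86, adjusted p = 0.0465), with a median of 0.53. Counts of 1 or 2 genes are no result about a list.

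The heat shock list, which holds known targets of the DREB2 branch in Arabidopsis, had 0 of 17 genes called in susceptible leaves of day 7, with a median of 0.14. HSP22.3 had the smallest p there (1.25 ± 0.35; adjusted p = 0.0597). Other settings called up to 4 of the 17. On day 1 the list had 1 of 17 higher, HSF-01 (1.19 ± 0.29; adjusted p = 0.0282), with a median of 0.34, where 5.01% of all probe sets were called and 1.72% called higher. A count of 1 gene is no result about the list. On that day SCOF-1 (2.28 ± 0.42; 0.0149) and B13-1-9 (8.14 from 5.47; 0.0244) were already higher, ICE2 and ICE5, named after regulators of the cold response, were lower (-1.14 ± 0.25 and -1.24 ± 0.27; 0.0222 and 0.0227), and 0 genes of the other AP2/ERF, abscisic acid and osmolyte lists were called. With the 3' minus 5' signal as a covariate, 0 genes of the LEA, heat shock and regulator lists were called on day 1. Only 0.0293% of all probe sets were called in that fit, so this count says nothing particular about the lists.

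In resistant leaves 0 genes of the 6 lists were called for aphids on day 1 or on day 7, where 0% and 0.00266% of all probe sets were called, so these counts say nothing particular about the lists. Medians on day 7 were between -0.19 for the abscisic acid list and 0.15 for the other AP2/ERF factors, where all probe sets had -0.02. SPK-4, at -0.75 ± 0.19, and SCOF-1, at 1.37 ± 0.42, had the smallest p of their lists (adjusted p = 1 for both). The difference between cultivars in the aphid effect of day 7, which was not called for the DREB genes, was called for 4 list genes, all with a lower aphid effect in resistant leaves: SPK-4 (-2.16 ± 0.27; adjusted p = 0.00331), SPK-3 (-1.24 ± 0.26; 0.0358), PM3 (adjusted p = 0.0263) and ALDH10A2 (-2.0 ± 0.45; 0.0438). Over all probe sets 0.676% were called. The uninfested difference between cultivars enters this contrast with its sign turned, so it is no separate evidence for these genes. Its own values on day 7, resistant against susceptible, were 10.19 and 8.74 for SPK-4, 10.26 and 9.17 for SPK-3, 7.82 and 5.92 for PM3, and 11.18 and 9.52 for ALDH10A2. The probe sets of SPK-4, PM3, NAC19 and PM16 have names ending in _s_at, and that of NAC1 in _x_at, which mark probes that can bind several transcripts, so their gene is less certain. In a fit of the contrast's own groups, 0 list genes were called for the cultivar difference in the aphid effect of day 7. In that fit 0% of all probe sets were called, so the count says nothing particular about these genes.

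**Figure D5:**
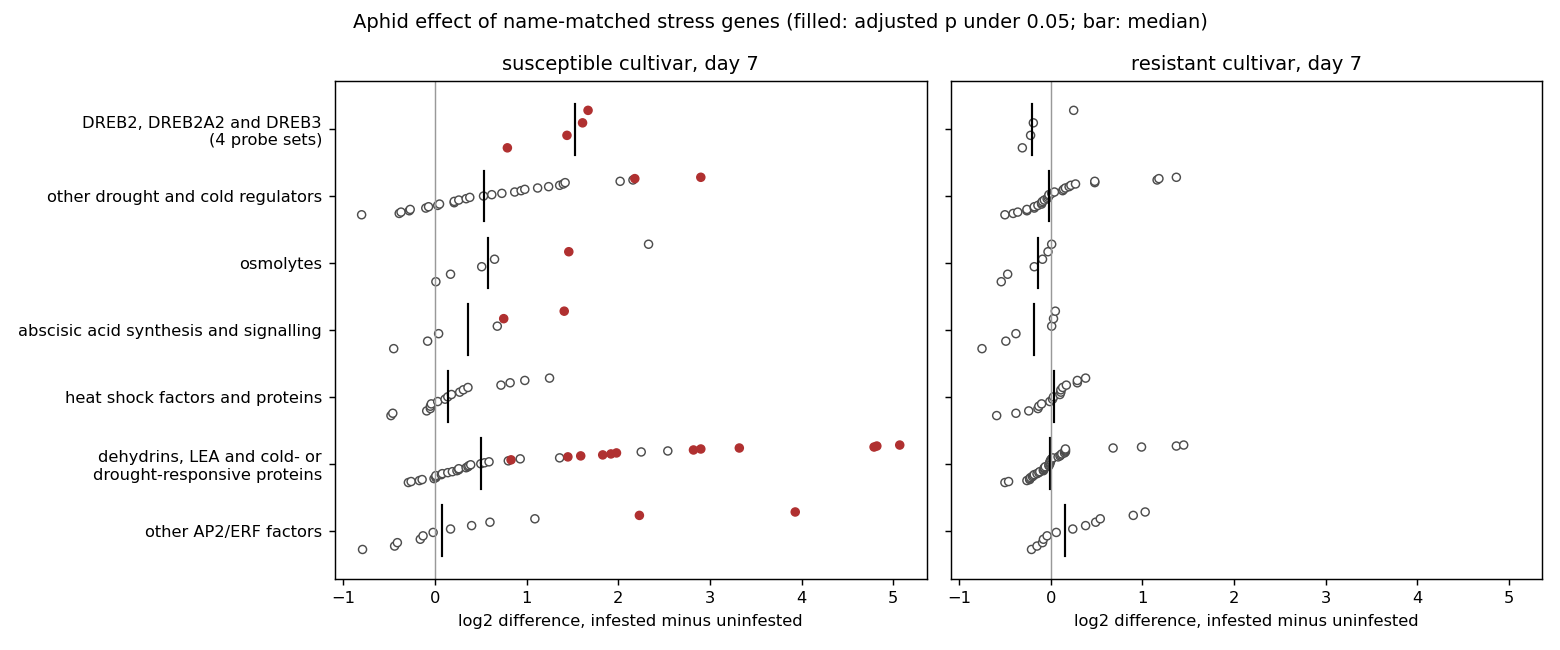
Log2 difference between infested and uninfested leaves of day 7 for the 4 DREB probe sets (top row) and for each gene of 6 lists built by gene name (other rows), in the susceptible (left) and resistant (right) cultivar; bars are medians and filled circles had an adjusted p under 0.05. On the left all 4 DREB probe sets and 12 LEA-type genes are filled, and on the right none is; differences of genes that are dim without aphids, such as B13-1-9, rest on signals with no background estimate.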

How the data were processed

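Biotin-labelled total RNA from leaves had been hybridised to 1-colour soybean arrays, and the authors deposited 1 table of log2 values for 37653 probe sets and 24 arrays. Per the submitters' processing notes, RMA, GCRMA and limma were used; which of them made the table, and how its probes were combined, is not given in the sources. On the linear scale 99.61% of the deposited log2 values were whole numbers within 0.01. No background estimate came with them.

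After 60 control probe sets were removed, values were quantile-normalized and 8 group means fitted with limma 3.58.1 in R 4.3.3 (prior degrees of freedom 3.65, residual 16). P-values were adjusted (Benjamini-Hochberg) over all soybean probe sets in each of 16 contrasts. The fit was tested on simulated data. Alternatives were median centring, no scaling, normexp with an offset of 50, only probe sets above the median mean, all probe sets, array weights, a variance with trend and robust fit, a replicate block, the 3' minus 5' covariate, fits of each contrast's groups alone, a 2-fold minimum, and leaving out arrays.

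Genes were named from the platform annotation; 8652 of 8677 identifiers were in the RefSeq table of Glycine_max_v4.0. Lists matched symbols or synonyms by pattern, so some take unrelated genes (RAB2). In each, up to 4 called genes with the smallest p were named, or the 1 with the smallest p; DREB1, DREB5, DREB, GOLS, PM35, MP2, PM9, PM16 and PM39 were added after their values were seen. Members, lists and the main scaling were chosen with earlier results of these data known.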

Additional observations from a re-analysis of the deposited data

How the results depend on the processing

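Over 64 differences (4 probe sets, 16 contrasts) and 36 alternatives, 2137 of 2304 values kept their direction and their side of the threshold, 68 lost a call, 31 gained one and 68 uncalled ones changed sign; 0 called values turned. The rise in susceptible leaves of day 7 was 1.40 to 1.86 and 1.52 to 2.04 for DREB2, 1.59 to 2.07 for DREB2A2 and 0.76 to 1.17 for DREB3 under other settings, largest without scaling, where the median of all probe sets was 0.26. The number of the 4 called there was 2 in a fit of the contrast's own groups and 1 to 4 without 1 array. For the cultivar difference in the aphid effect of day 7 it was 0, but 2 with median centring, 3 without scaling, 3 with array weights, 1 with the 3' minus 5' covariate and 0 to 3 without 1 array. For that difference on day 1 it was 1 with array weights and 0 to 1 without 1 array, and for the day difference in the susceptible aphid effect 2 with array weights. The cultivar difference of uninfested leaves had 0 with the covariate and 0 to 1 without 1 array on day 1, and 0 in its own groups, 0 without the 3 arrays least like the others (chosen after seeing the data) and 0 to 2 without 1 array on day 7. The day difference in infested susceptible leaves had 3 with the covariate, 3 in its own groups, 3 at a 2-fold minimum and 2 to 4 without 1 array, DREB3 being the one lost under the first 3. In uninfested resistant leaves it had 1 with median centring, 1 among probe sets above the median mean, 1 with array weights and 0 to 1 without 1 array. In infested resistant leaves it had 0 with normexp, 2 above the median mean, 2 with array weights, 0 in its own groups, 0 without the 3 arrays and 0 to 2 without 1 array. The causes were not tested. Calls over all probe sets for the susceptible aphid effect of day 7 numbered 1067, against 2137 without scaling, 2660 with array weights, 2301 with the covariate and 603 at a 2-fold minimum. For the cultivar difference in that effect they numbered 254, against 441 with median centring, 497 without scaling, 880 with array weights, 822 with the covariate, 384 with the replicate block and 0 in its own groups. Of the 39 LEA-type genes, 12 were called for aphids in susceptible leaves of day 7. In the fit of probe sets above the median mean 6 were called, but dimmer genes of the list were left out of that fit and not tested.

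Infested and uninfested samples of the same replicate number did not deviate together in every aphid contrast: their correlations ran from -0.357 to 0.457, 4 of 12 over 0.1. In susceptible leaves of day 7 they were all above 0, at 0.071, 0.237 and 0.386. Samples of unlike number had -0.401 to 0.116 there. With the replicate block, 1 probe set, DREB2A2, was called for the cultivar difference in the aphid effect of day 7 (-1.85, adjusted p = 0.05 after rounding), and no other member call changed. The number of arrays and the lack of a background estimate limit the precision of dim genes.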

Other observations

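Of the other DREB genes on the array, DREB1 (probe set ending in _s_at) read 11.73, 10.57 and 11.31 in infested susceptible leaves of day 7 and 10.04, 10.14 and 10.15 in uninfested ones. The groups did not overlap, and the difference of 1.09 was not called. In uninfested resistant leaves of day 7 it read 11.90, 10.63 and 10.26, with replicate 1 highest as for DREB2, DREB2A2 and DREB3. DREB5 read 9.37, 7.35 and 6.47 in infested resistant leaves of day 7, an SD of 1.48 that was wider than that of any DREB2, DREB2A2 or DREB3 group. The gene named DREB had group means between 9.51 and 9.88 in all 8 groups.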
